A study of Mus musculus with 20 samples.

Results

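The 10 genes described here encode enzymes of branched-chain amino acid (BCAA) catabolism, namely Bcat2, Bckdha, Bckdhb, Dbt, Ivd, Mccc1, Acadsb, Hibch, Hibadh and Aldh6a1. They were taken by name from a table of 14776 genes measured by RNA sequencing in epididymal white adipose tissue (eWAT), and all 10 were found there. The tissue came from 20 male C57BL/6J mice, which entered the study at 6 weeks of age. The NC group (n = 6) received maintenance chow. The HFD group (n = 7) received a diet with 60 kcal% fat for 14 weeks and then saline by gavage for another 6 weeks on the same diet. The SZ-A group (n = 7) received that diet for as long and, in place of saline, 400 mg/kg per day of SZ-A (Ramulus Mori alkaloids, prepared from mulberry twigs) during the last 6 weeks. The labels name no engineered allele, and the HFD and SZ-A groups share the diet and the gavage.

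Leucine, isoleucine and valine are the BCAAs. Their breakdown begins with a reversible transamination and continues in the mitochondrial matrix with the branched-chain ketoacid dehydrogenase (BCKDH) complex, which commits the carbon skeletons to oxidation. After that step the pathway divides into a separate branch for each amino acid, ending in acetyl-CoA, acetoacetate or propionyl-CoA. Mature adipocytes express the pathway strongly and use its products for lipid synthesis, and its activity in fat is known to change with obesity and insulin sensitivity.

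Values are FPKM, read fragments scaled to the length of all annotated exons of a gene and to the mapped fragments of the library. That length was 10952 bases for Mccc1 and 1899 for Bckdha, so an order of genes by FPKM also depends on the annotation. FPKM do not correct for differences in library composition between mice. Differences between groups are differences in log2(FPKM + 1), tested with limma on all genes, and a gene was called when its adjusted p was below 0.05. By read numbers recovered from the FPKM, which are approximate, each mouse had between 13567611 and 19388474 reads on these genes. The members were read by between 39 (Bckdha in SZ-A replicate 5) and 13104 (Aldh6a1) fragments in a mouse. None of the members was at 0 in any mouse. NC replicate 6 stood out by its correlation with its group, and SZ-A replicate 5 by its share of mitochondrial reads. In NC replicate 6 the median correlation with the other NC mice was 0.70, against 0.85 to 0.98 within their groups for 18 other mice, and the adipocyte hormone Adipoq was at 26.6 FPKM against 860 to 2278 in the other NC mice, while Adgrg2, a receptor of the male genital ducts, was at 420 FPKM against 5.69 to 29.97. In SZ-A replicate 5 genes of the mitochondrial genome took 11.6% of the reads, against 1.67% to 8.34% elsewhere. Its correlation was 0.87, within the range of the 18 other mice. Results that rest on these mice are given with and without them. The epithelial keratin Krt18 was also high in NC replicate 1 (454 FPKM), whose correlation was 0.85 and mitochondrial share 8.34%, and in NC replicate 2 (150 FPKM). It was at 56.0 and 53.7 FPKM in NC replicates 4 and 5, against at most 3.23 in HFD mice. SZ-A replicates 2 and 7 had 119 and 168 FPKM against at most 30.04 in the other SZ-A mice, and SZ-A replicate 2 had Adgrg2 at 103 FPKM. The genes Bckdha, Mccc1, Aldh6a1 and Acadsb overlap other measured genes, on the opposite strand or both, and the library kit does not mark strand, so reads of shared stretches cannot be told apart.

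In HFD mice 7 of the 10 members were lower than in NC mice and 0 were higher. Those that fell were Aldh6a1, Bckdhb, Acadsb, Hibch, Ivd, Hibadh and Dbt, by 1.79-fold for Dbt to 3.42-fold for Aldh6a1. Bcat2, Bckdha and Mccc1 were not called, although their mean differences were also below 0. The median difference of the 10 members was -1.06, beside a median of -0.041 over the 14706 genes tested. Of those genes 20.1% were called lower and 21.0% were called higher. With the further requirement of a difference over 1.5-fold all 7 remained, beside 12.7% of all genes, while a log2 difference over 1.5 left 1 member (Aldh6a1), beside 2.54% of all genes.

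NC replicate 6 was the lowest NC mouse for each of the 10 members. Without it 7 members were called lower, all 7 of them also called with it, beside 22.6% of all genes. The median over the members became -1.28, and 3 members (Aldh6a1, Bckdhb and Hibch) passed the log2 difference of 1.5, beside 2.57% of all genes. With all mice the ranges of HFD and NC did not overlap for 1 member, Aldh6a1, beside 7.77% of all genes with HFD wholly below NC. Without NC replicate 6 they did not overlap for 6 members, Dbt being the called member left, beside 10.4% of all genes.

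**Figure D1:**
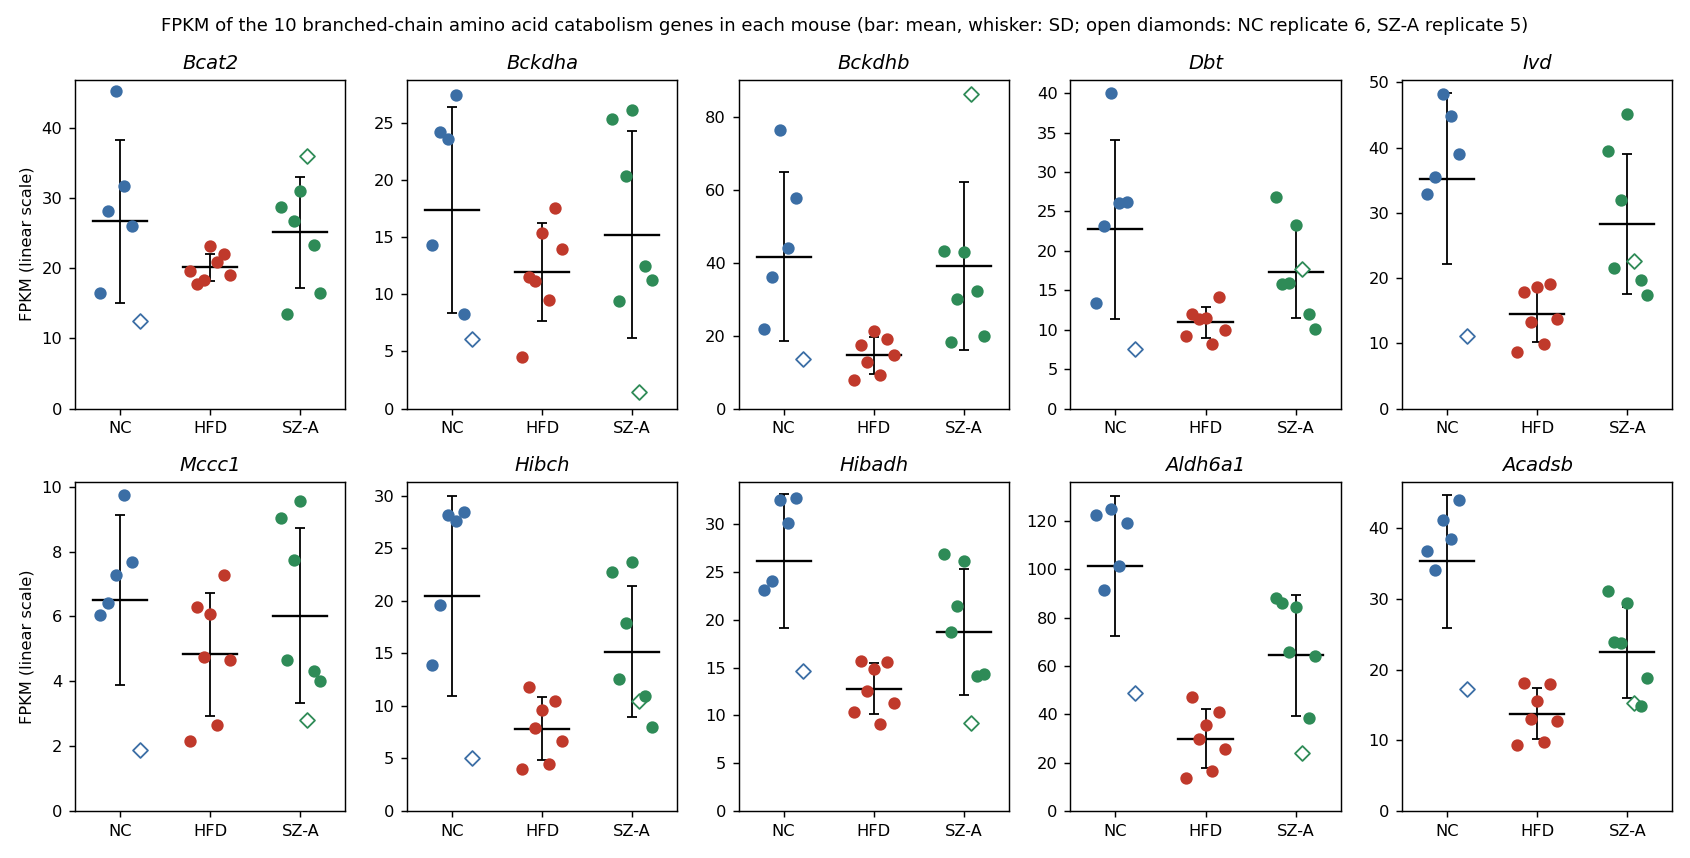
FPKM of each member (linear scale from 0) in NC, HFD and SZ-A mice, 1 point per mouse, with the group mean as a bar and the SD as a whisker. Open diamonds mark NC replicate 6 and SZ-A replicate 5. For Aldh6a1 all HFD points, at most 47.2 FPKM, lie below the NC points, the lowest of which is NC replicate 6 at 48.9.

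Bcat2 (ENSMUSG00000030826, chr7:45570153-45589711, plus strand, GRCm38) encodes the mitochondrial aminotransferase that removes the amino group of all BCAAs. Its level ran from 12.5 through a median of 27.1 to 45.2 FPKM in NC mice. In HFD mice it ran from 17.8 through 19.6 to 23.1 FPKM, and in SZ-A mice from 13.5 through 26.7 to 35.9 FPKM. The HFD values lay inside the NC range and were the most tightly grouped. The difference between HFD and NC was -0.28 (SE 0.23, 95% confidence interval -0.78 to 0.22, adjusted p = 0.35), and without NC replicate 6 it was -0.47 (adjusted p = 0.057). SZ-A differed from HFD by 0.25 (-0.14 to 0.63, adjusted p = 0.33).

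The BCKDH complex is built from an E1 component with an alpha subunit (Bckdha) and a beta subunit (Bckdhb), an E2 transacylase (Dbt) and the E3 lipoamide dehydrogenase (Dld). Bckdhb (ENSMUSG00000032263, chr9:83925145-84124240, plus strand) was at 13.7, 40.1 and 76.4 FPKM (lowest, median and highest) in NC mice. It was at 7.91, 14.7 and 21.4 FPKM in HFD mice and at 18.3, 32.3 and 86.2 FPKM in SZ-A mice. Apart from NC replicate 6, all NC mice were above all HFD mice, and the SZ-A mice reached down only to the upper end of the HFD range. Bckdhb fell by 1.31 in HFD mice (SE 0.36, 2.49-fold, adjusted p = 0.01) and by 1.58 without NC replicate 6. SZ-A mice had more of it than HFD mice, by 1.25 (SE 0.31, 2.39-fold, adjusted p = 0.01). The highest SZ-A value was that of replicate 5, and without this mouse the difference was 1.04 (adjusted p = 0.0087).

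Bckdha (ENSMUSG00000060376, chr7:25629946-25658981, minus strand) followed neither change beyond its spread. It was at 6.11, 18.95 and 27.5 FPKM in NC mice, at 4.48, 11.5 and 17.6 in HFD mice and at 1.47, 12.5 and 26.1 in SZ-A mice. All ranges overlapped, and the lowest value was that of SZ-A replicate 5, where the other subunit was at its highest. The difference between HFD and NC was -0.41 (95% confidence interval -1.19 to 0.37, adjusted p = 0.39), and that between SZ-A and HFD was 0.10 (-0.85 to 1.06, adjusted p = 0.89). Without SZ-A replicate 5 the latter was 0.50 (-0.13 to 1.13, adjusted p = 0.21). Both intervals include changes as large as those of several called members.

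Dbt (ENSMUSG00000000340, chr3:116513070-116549981, plus strand) was at 7.54, 24.6 and 40.1 FPKM in NC mice, at 8.25, 11.4 and 14.1 in HFD mice and at 10.1, 16.0 and 26.8 in SZ-A mice. NC replicates 1 and 6 lay within or below the HFD range, and the SZ-A range overlapped that of HFD. Dbt fell by 0.84 in HFD mice (SE 0.29, 1.79-fold, adjusted p = 0.034) and by 1.10 without NC replicate 6 (adjusted p = 0.00097). This call was lost, with adjusted p between 0.051 and 0.068, on leaving out NC replicate 2, 3, 4 or 5 or HFD replicate 1, 3, 5 or 7. In SZ-A mice Dbt was higher than in HFD mice by 0.58 (SE 0.19, 1.49-fold, adjusted p = 0.038), a call lost in 8 of 14 omissions of a mouse (adjusted p between 0.052 and 0.083).

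Since the E1 component holds its subunits in a fixed proportion, their FPKM ratio was taken in each mouse, a choice made after the values had been seen. Bckdhb over Bckdha lay between 0.962 and 1.77 in HFD mice, between 1.49 and 6.98 in NC mice and between 1.47 and 58.5 in SZ-A mice. The HFD mice held the 5 lowest ratios of the series, between 0.962 and 1.39. The mean log2 ratio of HFD mice was 0.32, that of NC mice 1.25 and that of SZ-A mice 1.58. HFD minus NC was -0.94 (exact two-sided permutation p = 0.014, adjusted over 3 comparisons 0.021). SZ-A minus HFD was 1.26 (exact two-sided permutation p = 0.0058, adjusted 0.017). SZ-A and NC were not shown to differ (0.33, exact two-sided permutation p = 0.88, adjusted 0.88). The pair was picked from these same values, so the p-values of this ratio cannot decide whether the subunits responded differently. The adjustment covers the 3 comparisons and not the choice among pairs of members. The ratio of 58.5 belongs to SZ-A replicate 5. Without it the SZ-A mice reached 2.59, the difference from HFD was 0.55 (exact permutation p = 0.012), and that from NC turned to -0.39 (exact permutation p = 0.37). Without NC replicate 5, the NC mouse with the ratio of 6.98, the difference between HFD and NC was -0.63 (exact permutation p = 0.03).

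**Figure D2:**
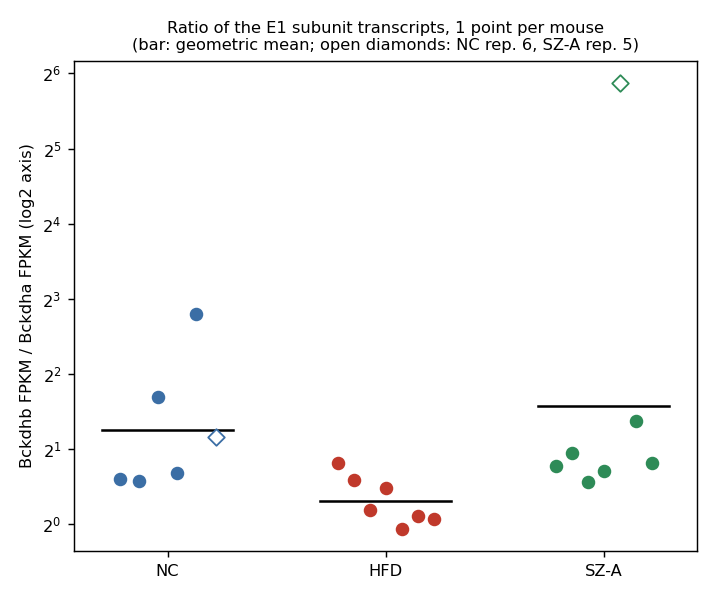
Ratio of Bckdhb to Bckdha FPKM in each mouse on a log2 axis, with the geometric mean of each group as a bar. The 7 HFD ratios lie between 0.962 and 1.77, and SZ-A replicate 5 (open diamond) stands at 58.5, far above the other SZ-A mice.

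The promoter windows of the E1 subunits and of Aldh6a1, the member that fell most, are shown because these genes share a pathway and were not all called. Each holds 250 bases before and 50 bases after the annotated start, from RefSeq on GRCm38.p6, written 5′ to 3′ on the strand of the gene. Windows were found for 9 of the 10 members, and Dbt had no entry. Capitals mark 3 motifs searched on both strands, the nuclear receptor half-site AGGTCA (in 16.3% of all 32851 windows), the CCAAT box CCAAT (37.4%) and the GC box GGGCGG (35.7%), with ATTGG and CCGCCC as the reverse forms of the latter pair.
Bckdha, chr7:25658712-25659011, minus strand: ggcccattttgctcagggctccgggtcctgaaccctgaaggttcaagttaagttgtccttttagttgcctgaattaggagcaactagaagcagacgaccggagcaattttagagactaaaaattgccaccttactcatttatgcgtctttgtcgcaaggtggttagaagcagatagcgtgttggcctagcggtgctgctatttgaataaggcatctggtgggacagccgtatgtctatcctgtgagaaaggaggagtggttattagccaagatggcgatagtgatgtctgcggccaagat
Bckdhb, chr9:83924887-83925186, plus strand: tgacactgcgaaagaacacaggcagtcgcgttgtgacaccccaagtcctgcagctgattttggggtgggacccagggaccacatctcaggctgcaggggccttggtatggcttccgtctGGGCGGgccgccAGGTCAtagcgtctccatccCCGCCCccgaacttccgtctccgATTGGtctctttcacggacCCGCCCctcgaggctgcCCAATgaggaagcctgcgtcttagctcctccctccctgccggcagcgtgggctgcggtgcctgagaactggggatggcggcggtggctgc
Aldh6a1, chr12:84450975-84451274, minus strand: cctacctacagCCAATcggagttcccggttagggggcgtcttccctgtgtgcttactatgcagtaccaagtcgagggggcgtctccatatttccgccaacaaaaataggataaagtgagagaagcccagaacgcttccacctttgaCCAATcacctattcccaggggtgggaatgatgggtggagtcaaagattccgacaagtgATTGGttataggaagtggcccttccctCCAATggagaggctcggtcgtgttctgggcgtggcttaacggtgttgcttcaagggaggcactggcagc
The Bckdha window held 0 matches to these letters and had a GC content of 48.0%. The Bckdhb window, with 65.0% GC, held 1 half-site, 2 CCAAT boxes and 3 GC boxes. The Aldh6a1 window, with 53.7% GC, held 4 CCAAT boxes. Counting every window of a gene, 3 of the 9 members held the half-site (Bckdhb, Hibadh and Aldh6a1), 5 a CCAAT box and 5 a GC box. These counts are of genes, some with more than 1 window, and cannot be set directly against the shares of windows above. The half-site of Aldh6a1 lay in another of its windows (chr12:84448268-84448567), not shown here. The matches did not overlap each other, and they describe the letters only.

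In the leucine branch, Ivd (ENSMUSG00000027332, chr2:118861954-118882909, plus strand) encodes isovaleryl-CoA dehydrogenase, the enzyme that follows BCKDH. It was at 11.1, 37.3 and 48.2 FPKM in NC mice, at 8.62, 13.8 and 19.1 in HFD mice and at 17.4, 22.7 and 45.1 in SZ-A mice. All NC mice but replicate 6 were at 32.9 FPKM or more, and no HFD mouse was above 19.1. Ivd fell by 1.16 in HFD mice (SE 0.30, 2.23-fold, adjusted p = 0.0084) and by 1.45 without NC replicate 6. In SZ-A mice it was higher than in HFD mice by 0.89 (SE 0.23, 1.86-fold, adjusted p = 0.014).

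Mccc1 (ENSMUSG00000027709, chr3:35959312-36000678, minus strand), the biotin-carrying alpha subunit of methylcrotonyl-CoA carboxylase, acts next in that branch. It had the lowest mean of the members in all groups, and was at 1.88, 6.84 and 9.75 FPKM in NC mice, at 2.16, 4.74 and 7.29 in HFD mice and at 2.81, 4.65 and 9.57 in SZ-A mice. The ranges overlapped widely, with HFD replicates 1 and 5 and NC replicate 6 at the low end. The difference between HFD and NC was -0.33 (95% confidence interval -0.99 to 0.32, adjusted p = 0.4) and without NC replicate 6 it was -0.59 (adjusted p = 0.053). SZ-A differed from HFD by 0.25 (-0.32 to 0.82, adjusted p = 0.52). Its partner Mccc2, the beta subunit of the carboxylase, fell by 1.13 in HFD mice (SE 0.25, adjusted p = 0.0027), with all HFD mice below all NC mice. Whether the subunits differed in response was not tested.

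Acadsb (ENSMUSG00000030861, chr7:131410601-131448944, plus strand), the short/branched-chain acyl-CoA dehydrogenase of the isoleucine branch, was at 17.3, 37.7 and 44.0 FPKM in NC mice. In HFD mice it was at 9.29, 13.02 and 18.2 FPKM, and in SZ-A mice at 14.9, 23.8 and 31.2 FPKM. The 5 NC mice other than replicate 6 were above every mouse of both other groups. Acadsb fell by 1.28 in HFD mice (SE 0.22, 2.43-fold, adjusted p = 0.00049) and by 1.47 without NC replicate 6. Against HFD mice it was higher in SZ-A mice by 0.66 (SE 0.20, 1.58-fold, adjusted p = 0.026).

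Several steps of the valine branch were among the members. Hibch (ENSMUSG00000041426, chr1:52844929-52920986, plus strand), which releases free 3-hydroxyisobutyrate from its CoA ester, was at 5.07, 23.6 and 28.4 FPKM in NC mice, at 4.03, 7.87 and 11.8 in HFD mice and at 7.96, 12.6 and 23.7 in SZ-A mice. Hibadh (ENSMUSG00000029776, chr6:52546228-52640389, minus strand), the dehydrogenase that oxidises 3-hydroxyisobutyrate, was at 14.6, 27.1 and 32.8 FPKM in NC mice, at 9.07, 12.5 and 15.7 in HFD mice and at 9.20, 18.7 and 26.9 in SZ-A mice. For both genes the NC mice without replicate 6 were above all HFD mice. The SZ-A mice ran from within the HFD range to within the range of those NC mice. Hibch fell by 1.18 in HFD mice (SE 0.36, 2.26-fold, adjusted p = 0.02) and in SZ-A mice exceeded its HFD level by 0.86 (SE 0.27, 1.81-fold, adjusted p = 0.031). The latter call was lost in 7 of 14 omissions of a mouse (adjusted p between 0.051 and 0.072). Hibadh fell by 0.96 (SE 0.19, 1.94-fold, adjusted p = 0.0015). Its difference between SZ-A and HFD was 0.46 with all mice (adjusted p = 0.12), and 0.61 without SZ-A replicate 5, the lowest SZ-A mouse (SE 0.18, adjusted p = 0.02).

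Aldh6a1 (ENSMUSG00000021238, chr12:84430717-84451004, minus strand), methylmalonate-semialdehyde dehydrogenase, completes the valine branch to propionyl-CoA. It had the highest mean of the members in every group, and was at 48.9, 110 and 125 FPKM in NC mice. In HFD mice it was at 13.8, 29.7 and 47.2 FPKM, and in SZ-A mice at 24.1, 65.9 and 88.3 FPKM. All HFD mice were below all NC mice, and apart from NC replicate 6 all SZ-A mice were below the NC mice too. Aldh6a1 fell by 1.77 in HFD mice (SE 0.30, 3.42-fold, adjusted p = 0.00043) and by 1.97 without NC replicate 6. SZ-A mice exceeded HFD mice by 1.07 (SE 0.32, 2.10-fold, adjusted p = 0.028), and by 1.28 without SZ-A replicate 5, which held the lowest SZ-A value (adjusted p = 0.0047).

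Ordered by mean FPKM, Aldh6a1 led the members in all groups, its mean and SD being 101 ± 28.9 in the 6 NC mice, 29.95 ± 12.3 in the 7 HFD mice and 64.5 ± 24.96 in the 7 SZ-A mice, and Mccc1 closed the order. In NC mice Bckdhb (41.6 ± 23.2), Acadsb (35.3 ± 9.47) and Ivd (35.3 ± 13.2) came next and differed by less than their spread. Bcat2, the fifth in NC mice at 26.7 ± 11.6, was the second in HFD mice at 20.1 ± 1.97, ahead of Bckdhb at 14.6 ± 5.004. In SZ-A mice Bckdhb (39.0 ± 23.0) was again the second and Bcat2 (25.1 ± 7.93) the fourth. Neighbours between the second and the ninth place lay within their SDs of each other in NC and SZ-A mice. The order also depends on the exon lengths used for scaling, the longest of which among the members was that of Mccc1 (10952 bases).

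SZ-A mice had higher levels than HFD mice for 6 of the 10 members (Bckdhb, Aldh6a1, Ivd, Hibch, Acadsb and Dbt), and 0 were lower. The median difference of the members was 0.62, beside 0.031 over the 14695 genes tested, of which 9.47% were called higher and 13.3% lower. Without SZ-A replicate 5, 7 members were called higher, Hibadh being added, beside 12.9% of all genes, and the median was 0.67. A difference over 1.5-fold was passed by 5 of the 6, Dbt being the exception at 1.49-fold, beside 5.14% of all genes, and a log2 difference of 1.5 by 0, beside 0.306% of all genes. The ranges of SZ-A and HFD overlapped for all 10 members, with and without SZ-A replicate 5, beside 2.07% and 2.76% of all genes with SZ-A wholly above HFD. The count of 6 depended on single mice. It dropped to 2 (Bckdhb and Ivd) on leaving out HFD replicate 1, HFD replicate 5, SZ-A replicate 1 or SZ-A replicate 4 and to 3 without SZ-A replicate 3, with the adjusted p of the members that were lost at 0.052 to 0.083. In these omissions 863 to 1040 of all genes were called higher, against 1392 with all mice. Over all 14 omissions the call was lost in 8 for Dbt, 7 for Hibch, 5 for Aldh6a1 and 4 for Acadsb. Those of HFD replicates 3 and 7 lost both Dbt and Hibch, and that of HFD replicate 4 lost Dbt.

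Between SZ-A and NC mice limma called 0 of the 10 members, beside 0.455% of all 14718 genes called lower and 4.15% called higher. At an unadjusted p below 0.05 there were 2 members, Acadsb (-0.62, 95% confidence interval -1.13 to -0.11) and Aldh6a1 (-0.70, -1.40 to -0.0083). The voom fit on recovered reads also called 0, and had 1 at an unadjusted p below 0.05. All 10 differences were below 0, with a median of -0.29, and the intervals were wide, from -0.95 to 0.83 for Bckdhb and from -1.44 to 0.82 for Bckdha. Without NC replicate 6 the median was -0.55 and Acadsb was called lower (-0.81, SE 0.19, adjusted p = 0.027), beside 0.870% of all genes. Leaving out SZ-A replicate 5 as well gave -0.73 for Acadsb (adjusted p = 0.034), again the only member called. The comparisons of HFD with NC and of SZ-A with HFD share the HFD mice, so a low HFD value enters both.

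**Figure D3:**
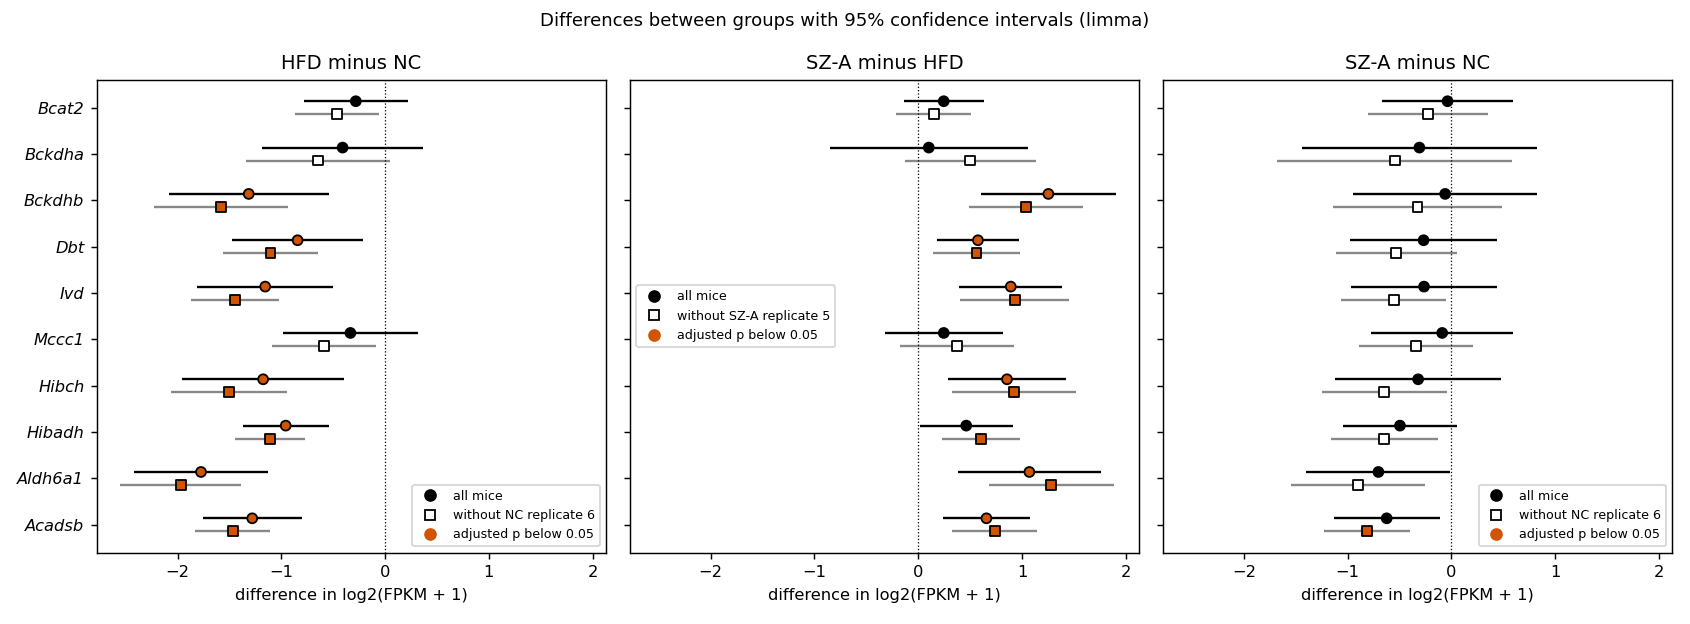
Differences in log2(FPKM + 1) of the 10 members for HFD minus NC, SZ-A minus HFD and SZ-A minus NC, with 95% confidence intervals from limma, for all mice (circles) and without NC replicate 6 or SZ-A replicate 5 (squares). Orange marks an adjusted p below 0.05, which 7, 6 and 0 members reached with all mice.

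Among 19 other genes of the pathway, 8 fell and 2 rose in HFD mice, beside 20.1% of all genes called lower and 21.0% called higher, and the median difference was -0.34. On leaving out NC replicate 6, 10 fell and 2 rose, with a median of -0.39, beside 22.6% of all genes called lower. Bcat1, the cytosolic aminotransferase, moved opposite to the mitochondrial enzymes, from 0.734 ± 0.485 FPKM (SD) in the 6 NC mice to 2.60 ± 0.741 in the 7 HFD mice, with 2.02 ± 0.537 in the 7 SZ-A mice. All HFD mice were above all NC mice. It rose by 1.07 (SE 0.19, adjusted p = 0.00055) in HFD mice, stayed higher in SZ-A than in NC mice (0.83, SE 0.18, adjusted p = 0.019), and its difference between SZ-A and HFD was -0.25 (adjusted p = 0.24). Oxct1, the ketone body transferase, was the other gene that rose (0.69, adjusted p = 0.006). Hsd17b10, the dehydrogenase of the isoleucine branch, fell by 1.17 (SE 0.20, adjusted p = 0.00044), and Mccc2 by 1.13.

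The BCKDH complex is switched by a kinase and a phosphatase. Ppm1k, the phosphatase that activates it, fell by 0.58 in HFD mice (SE 0.21, adjusted p = 0.041) and differed by 0.25 between SZ-A and HFD (adjusted p = 0.12). The call of Ppm1k was lost, with adjusted p between 0.052 and 0.085, on leaving out any HFD mouse or any NC mouse but replicates 1 and 6, that is, in 11 of 13 omissions. Bckdk, the kinase that inactivates it, differed by -0.25 (95% confidence interval -0.49 to -0.002, adjusted p = 0.098). Dld, the E3 component shared with other dehydrogenases, differed by 0.071 (-0.33 to 0.47, adjusted p = 0.79), and by -0.078 without NC replicate 6. Slc25a44, the mitochondrial BCAA carrier, differed by -0.077 (-0.37 to 0.21, adjusted p = 0.68). Between SZ-A and HFD mice 3 of the 19 rose (Mcee, Acad8 and Hsd17b10) and 0 fell, with a median of 0.36, beside 9.47% of all genes called higher. Hsd17b10 differed by 0.48, and its call was lost in 10 of 14 omissions of a mouse (adjusted p between 0.061 and 0.1), of HFD replicates 1, 2, 3, 5, 6 and 7 and of SZ-A replicates 1, 3, 4 and 7. Mccc2 differed by 0.50 (adjusted p = 0.21). Between SZ-A and NC only Bcat1 was called.

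The citric acid cycle is the next destination of the acetyl-CoA and succinyl-CoA formed. The 18 genes of this cycle and of the neighbouring pyruvate dehydrogenase had a median difference of -0.11 between HFD and NC. Of them 2 fell in HFD mice, beside the 20.1% of all genes called lower. These were Suclg2, a subunit of the GTP-forming succinyl-CoA ligase (-0.89, SE 0.28, adjusted p = 0.021), and Sdha, the flavoprotein of succinate dehydrogenase (-0.50, SE 0.17, adjusted p = 0.028), while the fumarase Fh1 differed by -0.35 (adjusted p = 0.078). The call of Sdha was lost without NC replicate 2 or 4 or HFD replicate 1, 3, 5 or 7 (adjusted p between 0.051 and 0.06). It was kept in 6 of 8 other settings, all groups in a single fit being among those that lost it (0.082). The call of Suclg2 was lost without NC replicate 1 (0.051) and kept in 7 of 8 other settings. On leaving out NC replicate 6, 6 of the 18 fell, Fh1 among them (adjusted p = 0.0055), with a median of -0.20, beside 22.6% of all genes. Of 3 regulators listed, Klf15, a transcription factor known to control BCAA catabolic genes, moved most. It was at 14.0, 29.5 and 40.6 FPKM in NC mice, at 2.74, 4.46 and 15.4 in HFD mice and at 13.8, 14.7 and 23.0 in SZ-A mice, with HFD replicate 6 alone among the HFD mice inside the range of the others.

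Klf15 fell by 2.17 in HFD mice (SE 0.33, 4.49-fold, adjusted p = 0.00017) and in SZ-A mice exceeded its HFD level by 1.45 (SE 0.27, 2.73-fold, adjusted p = 0.0024). Without NC replicate 6 it was lower in SZ-A than in NC mice, with a difference of -0.90 (adjusted p = 0.0073), while with all mice that difference was -0.72 (adjusted p = 0.08). Ppargc1a, a coactivator of mitochondrial genes, was at no more than 1.68 FPKM in any mouse and fell by 0.40 in HFD mice (SE 0.14, adjusted p = 0.032). That call was lost in 7 of 13 omissions, of NC replicate 3, 4 or 5 or HFD replicate 1, 4, 5 or 7 (adjusted p between 0.052 and 0.066). It was kept in 6 of 7 other settings. Pparg, the adipocyte master regulator, differed by -0.11 between HFD and NC with all mice (adjusted p = 0.91) and by -0.86 without NC replicate 6 (SE 0.27, adjusted p = 0.018).

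**Figure D4:**
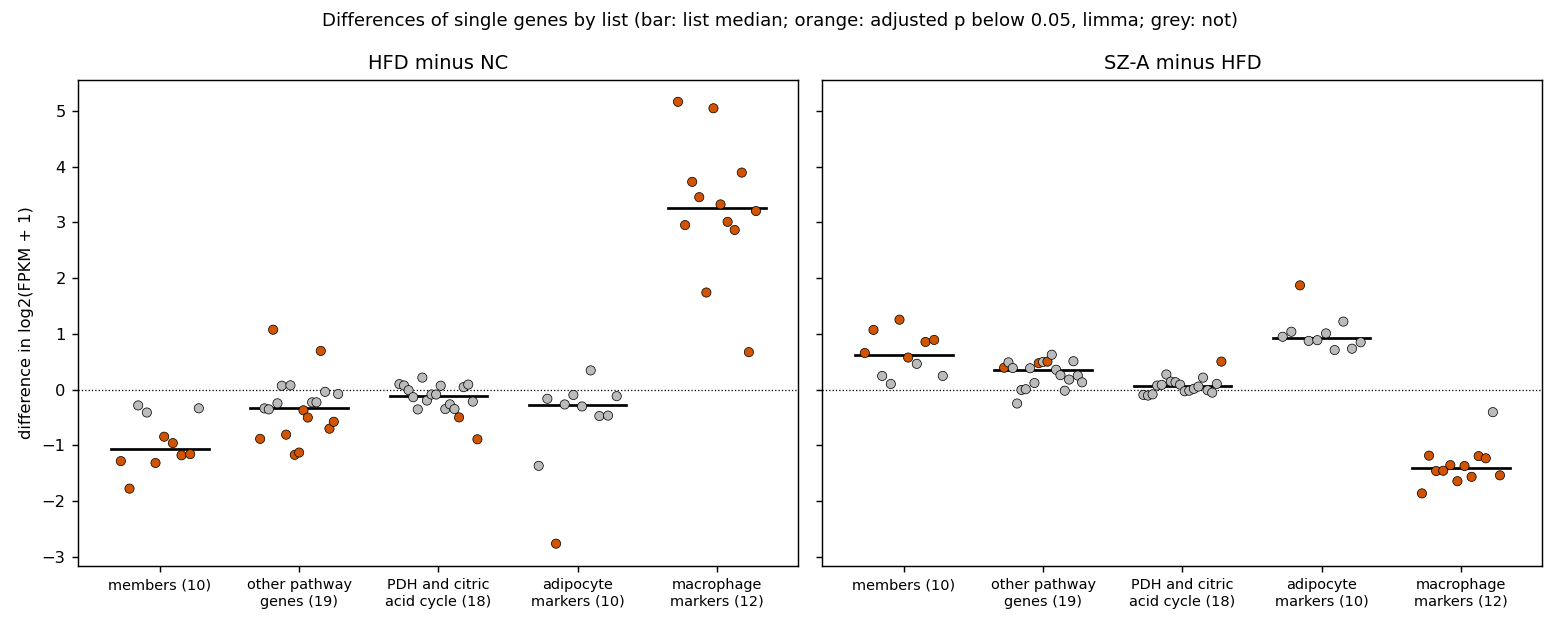
Differences in log2(FPKM + 1) of single genes in 5 lists for HFD minus NC and SZ-A minus HFD, with list medians as bars and genes with an adjusted p below 0.05 in orange. The member medians are -1.06 and 0.62, those of the 12 macrophage markers 3.26 and -1.41.

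Within groups most of the members varied together. After subtracting each group's mean, the 45 pairs of members had a median Pearson r of 0.75 over 20 mice, from 0.052 (Bcat2 with Aldh6a1) to 0.97 (Ivd with Hibch). Without NC replicate 6 the median was 0.67 and the lowest pair -0.22, and without SZ-A replicate 5 they were 0.83 and 0.28. Acadsb was closest to the rest, with a median r of 0.91 with the other members over 20 mice, 0.86 without NC replicate 6 and 0.92 without SZ-A replicate 5. Bcat2 was farthest over 20 mice, with 0.46, and had 0.22 without NC replicate 6, while without SZ-A replicate 5 it had 0.71 and Bckdha the lowest value, 0.70. The genes outside the list whose centred level was most like the mean of the members were Car5b (r = 0.99), a mitochondrial carbonic anhydrase, Adhfe1 (0.98), Gstz1 (0.98), Acad11 (0.98) and Idh3g (0.97). Their r was 0.96 to 0.98 without NC replicate 6. These values describe 20 mice whose points share library, cell make-up and depth, and carry no test.

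Marker lists of cell types were read beside the members, and in bulk tissue fewer cells of a type cannot be told apart from less RNA per cell. Of 10 adipocyte markers, 1 fell in HFD mice with all mice (median -0.28), beside 20.1% of all genes called lower. Without NC replicate 6, 7 of them fell (median -1.03), beside 22.6% of all genes. Their mean log2 level lay between 5.33 and 7.62 in HFD mice, between 6.98 and 8.70 in SZ-A mice and between 3.77 and 8.68 in NC mice, NC replicate 6 being the 3.77 and the next NC mouse being at 7.24. In SZ-A against HFD mice 1 of the 10 rose (median 0.92), beside 9.47% of all genes called higher, and 3 without SZ-A replicate 5, beside 12.9%. All 12 macrophage markers rose in HFD mice (median 3.26), beside 21.0% of all genes called higher. In SZ-A against HFD mice 11 of them fell (median -1.41), beside 13.3% of all genes called lower. Their mean log2 levels were between 6.76 and 7.67 in HFD, between 5.33 and 6.70 in SZ-A and between 2.36 and 4.84 in NC mice. Without NC replicate 6, 11 of the 12 rose, beside 3325 of 14697 genes. Without SZ-A replicate 5 all 12 fell in SZ-A against HFD mice, beside 2394 of 14690 genes.

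The mean log2 level of the 10 members lay between 3.13 and 4.16 in HFD, between 3.92 and 4.95 in SZ-A and between 3.51 and 5.28 in NC mice. HFD replicates 1 and 5 had the lowest members (3.13 and 3.30), the lowest adipocyte markers of that group (5.33 and 6.16) and its highest macrophage markers (7.67 and 7.44). SZ-A replicates 1 and 4 had the highest members of their group (4.94 and 4.95) and its highest adipocyte markers (8.70 and 8.60). NC replicate 1 and HFD replicate 2 had like adipocyte markers (7.24 and 7.36), with members at 4.50 and 4.05. Their macrophage markers were unlike, at 3.53 and 7.04. Pairs of SZ-A and HFD mice with like adipocyte markers went either way. SZ-A replicate 6 and HFD replicate 6 (7.76 and 7.62) had members at 4.07 and 4.16. SZ-A replicate 2 and HFD replicate 7 (6.98 and 7.05) had members at 4.17 and 3.71. These pairs are examples picked from the values. The part of cell make-up in the differences between groups was not tested.

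**Figure D5:**
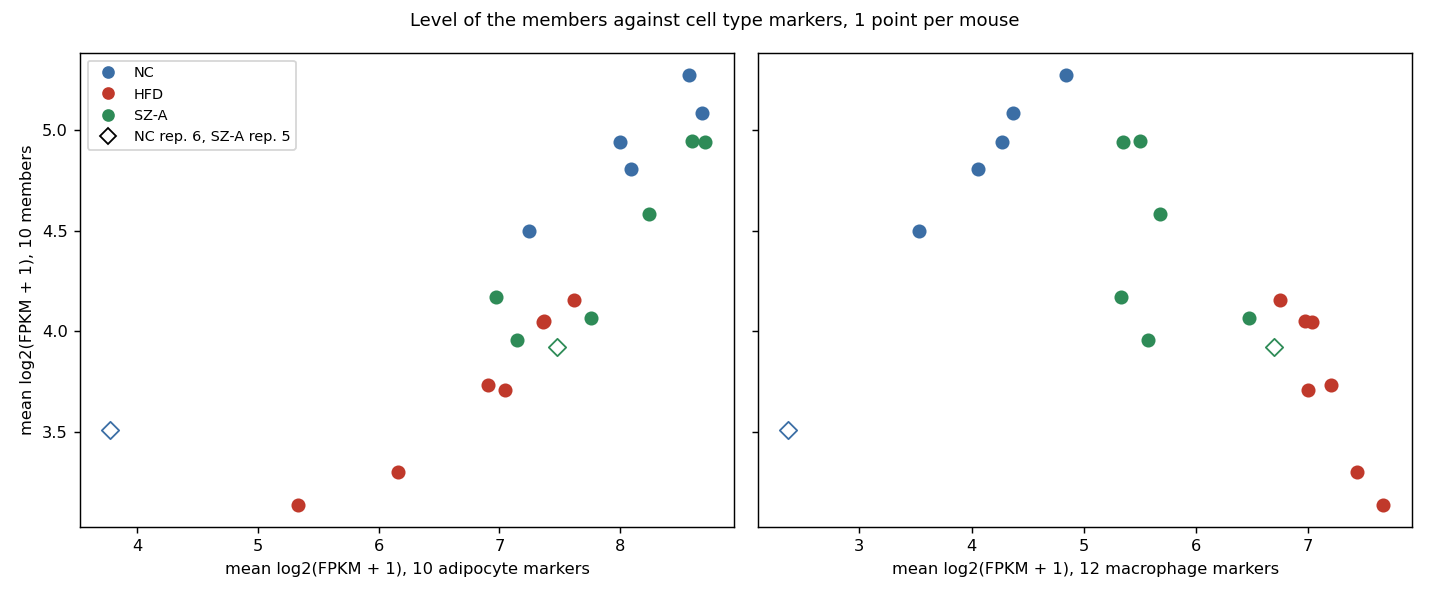
Mean log2(FPKM + 1) of the 10 members against that of 10 adipocyte markers (left) and 12 macrophage markers (right), 1 point per mouse. HFD mice lie at 3.13 to 4.16 on the member axis, and NC replicate 6 (open diamond) lies apart with adipocyte markers at 3.77.

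Of the other lists, read beside 20.1% of all genes called lower (22.6% without NC replicate 6) and 21.0% called higher, some moved. Of smooth muscle markers 4 of 6 fell in HFD mice (6 of 6 without NC replicate 6), of fibroblast and progenitor markers 4 of 6 rose and 1 fell, and of the listed mesothelial and epithelial markers 3 of 4 measured fell, among them Krt18, which was at 452 and 454 FPKM in NC replicates 6 and 1 and at no more than 3.23 in HFD mice. Of 8 listed epididymis markers only 2, Adgrg2 and Spint2, were among the genes measured. Both fell in HFD mice and rose in SZ-A against HFD mice, the latter beside 9.47% of all genes called higher. They were not always high in the same mice. In NC replicate 6 Adgrg2 was at 420 and Spint2 at 239 FPKM. In NC replicate 1, where Krt18 was at 454 FPKM, Spint2 was at 202.5 and Adgrg2 at 5.69. Of 5 endothelial and 5 lymphocyte markers limma called 0 and 0 between HFD and NC, with 0 and 1 (Cd8a) at an unadjusted p below 0.05, and the voom fit on recovered reads gave the same counts.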

How the data were processed

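Total RNA was extracted with TRIzol from the eWAT of 20 mice, and poly(A) libraries were sequenced as paired-end reads. For the deposited values, the authors used HISAT2 for alignment to GRCm38, counted reads with featureCounts (1.5.0-p3, per the submitters' processing notes) and deposited FPKM for 14776 genes, with 0 values at 0 and 0 unused columns. Which annotation and gene filter they used is not given in the sources used here. Symbols, positions and exon lengths came from GENCODE M21 (14770 genes matched).

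Genes averaging 0.1 FPKM or more over the groups compared were tested on log2(FPKM + 1), a scale that understates changes of low genes, with limma (3.58.1, R 4.3.3) and Benjamini-Hochberg adjustment over all of them, using the mice of the 2 groups. Mice are the replicates. Read numbers were recovered from FPKM and exon length, and 95.9% to 96.3% of values under 1000 reads were whole within 0.01. They gave the depths, the mitochondrial shares and a voom alternative. In some mice their sum exceeded the library size implied by the FPKM (17216136 against 15406997 in HFD replicate 1). The depths and shares are therefore approximate. Correlations between libraries used genes averaging 1 FPKM or more. Ratios were compared by exact permutation tests (SciPy 1.17.1). Scripts were tested on simulated data.

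All 10 members are named. Of the other lists, the 3 genes that differed most between HFD and NC and a set of listed partners are named. The members and lists were chosen with earlier results of these data known. Alternatives were another pseudocount (0.1), no filter, a minimum of 1 FPKM, all groups in a single fit, array quality weights, median-ratio scaling, a replicate block, voom and each mouse left out. The joint omission of NC replicate 6 and SZ-A replicate 5, and the subunit ratio, were added after seeing the data.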

Additional observations from a re-analysis of the deposited data

Results flagged for a closer look

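Within each group the gap between the most extreme mouse and its neighbour was set against the whole range (Dixon's criterion) for the members and the named partner genes, 69 sets of values in all, and 4 stood out. Chance flags about 1 in 20 such sets. Bckdhb in SZ-A replicate 5 was at 86.2 FPKM, against 43.2 in the next SZ-A mouse, and 0.63 of the group's range lay in that gap. Acadsb in NC replicate 6 was at 17.3 FPKM, against 34.1 in the next NC mouse. Klf15 in HFD replicate 6 was at 15.4 FPKM, against 7.43 in the next HFD mouse, and Hsd17b10 in HFD replicate 4 was at 45.0 FPKM, against 33.3.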

How the results depend on the processing

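The number of members called was 7 for HFD minus NC, with 5 to 9 under the 8 other settings and 6 to 7 when a mouse was left out. Beside this, 2956 of 14706 genes were called lower, with 2003 to 3710 under other settings and 2465 to 3320 on omissions. The number was 6 for SZ-A minus HFD, with 4 to 9 under other settings and 2 to 7 when a mouse was left out. There 1392 of 14695 genes were called higher, with 725 to 3214 under other settings and 863 to 1902 on omissions. For SZ-A minus NC it was 0, with 0 to 1 when a mouse was left out, 1 with array quality weights and 1 with NC replicate 6 and SZ-A replicate 5 left out together. Of all genes 67 of 14718 were called lower there, 926 with these weights and 146 with both mice left out. Bckdhb and Ivd were called in both HFD comparisons under every setting and omission run.

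Replicate numbers are names only. Deviations of same-numbered mice had correlations of -0.28 to 0.30 for NC and HFD, -0.39 to 0.37 for HFD and SZ-A and -0.41 to 0.58 for NC and SZ-A, and 0, 0 and 1 mice correlated best with their own number. With the replicate block 5, 5 and 0 members were called, beside 2003 genes called lower, 1029 called higher and 15 called lower in these comparisons. Small differences changed sign. For SZ-A minus NC, the replicate block gave 0.048 for Bcat2 and 0.068 for Bckdhb, and array quality weights gave 0.022 for Mccc1, while Dld had -0.025 with these weights for HFD minus NC. When a mouse was left out, HFD minus NC ran from -0.078 to 0.19 for Dld and from -0.86 to 0.22 for Pparg, and SZ-A minus HFD from -0.090 to 0.50 for Bckdha. SZ-A minus NC ran from -0.22 to 0.13 for Bcat2, -0.54 to 0.092 for Bckdha, -0.33 to 0.15 for Bckdhb and -0.34 to 0.043 for Mccc1, and from -0.39 to 0.64 for the log2 ratio of Bckdhb to Bckdha.

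Over all genes, SZ-A minus HFD called 3349 genes, 2089 with all groups in a single fit and 6403 with array quality weights, and SZ-A minus NC called 678, against 1527, 2639 and, with the replicate block, 167. The cause of these shifts was not tested.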
